A study of Mus musculus with 22 samples.

Results

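The serotonin receptor genes on the arrays were examined in the injured spinal cord of mice whose astrocytes cannot fully activate NF-κB. The members were 10 genes, Htr1a, Htr1b, Htr1d, Htr1f, Htr2a, Htr2b, Htr2c, Htr3a, Htr4 and Htr7, taken with all of their probes, which came to 14 of the 43379 probes on the arrays. They were chosen with the difference between genotypes at 6 weeks known, since Htr2c lay among the largest decreases there. Values of that comparison are therefore given as a description, with a standard error (SE) and no test, and so is every comparison that uses the same IκBα-dn mice at 6 weeks.

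GFAP-IκBα-dn transgenic mice (IκBα-dn), which carry a truncated dominant-negative IκBα under the astrocytic GFAP promoter, were compared with wild type (WT) littermates. All animals were adult females of 3 to 4 months on a C57BL/6 background, bred from heterozygous transgenic males and WT females. In each genotype the mice were naive (uninjured) or had received a spinal cord contusion 3 days, 3 weeks or 6 weeks earlier, and RNA came from cord centred on the lesion. Each 2-colour array set 1 mouse against another, and 21 of 22 arrays, holding 23 mice, were used, with 3 mice in each of 8 groups except WT at 3 weeks, which had 2. Values are deposited log2 ratios, so that 1 unit is a doubling, and they carry no absolute level. The array left out was set aside because its title and its description name different times (3 days, 3 weeks) for the Cy3 mouse.

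Serotonin is delivered to the cord by descending axons of brainstem raphe neurons, where it sets the excitability of motor neurons and interneurons and modulates pain relay in the dorsal horn. Receptors of the Htr1 family couple to inhibitory G proteins and lower cyclic AMP, those of the Htr2 family activate phospholipase C, and Htr4 and Htr7 raise cyclic AMP. Htr3a encodes the subunit of a ligand-gated cation channel. Htr2c is known for its part in motor neuron excitability and in spasms after cord injury in rats, and Htr2b is best known from heart valves, vessels and cells of the myeloid lineage, microglia included.

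The promoters of the 3 receptors that carry most of the findings are shown, so that the regions that precede their transcripts can be read beside the changes of those transcripts. They were taken from RefSeq on build GRCm38.p6 and run 5′ to 3′ on the strand of the gene, with 250 bases before the transcript start and 50 after it. Capitals mark a CCAAT box (here on the opposite strand, as ATTGG) in Htr2c and a GC box in Htr1a, and Htr2b held none of the motifs searched.
Htr2c, chrX:146962263-146962562, plus strand: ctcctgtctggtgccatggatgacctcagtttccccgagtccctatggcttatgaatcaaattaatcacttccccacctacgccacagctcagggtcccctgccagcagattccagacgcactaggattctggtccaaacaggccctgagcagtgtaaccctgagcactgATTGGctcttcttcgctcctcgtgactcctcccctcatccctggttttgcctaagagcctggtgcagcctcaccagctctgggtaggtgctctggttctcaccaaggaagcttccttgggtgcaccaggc
Htr1a, chr13:105443443-105443742, plus strand: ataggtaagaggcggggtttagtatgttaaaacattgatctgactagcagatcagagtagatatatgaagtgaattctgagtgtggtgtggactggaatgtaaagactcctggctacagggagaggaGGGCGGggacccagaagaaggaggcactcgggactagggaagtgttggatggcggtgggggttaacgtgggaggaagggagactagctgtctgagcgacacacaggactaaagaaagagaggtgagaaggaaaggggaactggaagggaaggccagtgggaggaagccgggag
Htr2b, chr1:86111931-86112230, minus strand: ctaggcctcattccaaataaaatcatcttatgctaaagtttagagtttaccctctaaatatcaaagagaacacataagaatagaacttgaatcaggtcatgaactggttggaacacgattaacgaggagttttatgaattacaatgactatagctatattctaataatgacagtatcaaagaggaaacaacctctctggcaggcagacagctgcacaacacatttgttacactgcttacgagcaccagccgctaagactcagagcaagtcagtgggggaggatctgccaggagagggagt

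The motifs searched, on both strands, were the NF-κB site by its name, the cyclic AMP response element TGACGTCA, the AP-1 site TGACTCA, the CCAAT box, the GC box GGGCGG and the TATA box TATAAA. Promoters of 8 of the 10 members were used, 9 promoters in all, since Htr1d has 2, while Htr3a and Htr4 are named only. A CCAAT box was present in 3 of the 9 and a GC box in 5, against 37.4% and 35.7% of all 32851 promoters of 300 bases in the table. None of the 9 held the NF-κB site, the cyclic AMP response element, the AP-1 site or the TATA box in this window, and those letters were present in 8.46%, 1.79%, 5.2% and 13.6% of all promoters. A match is a description of letters and not of a bound site. The GC content was 56.3% in the Htr2c promoter, 52.3% in Htr1a and 41% in Htr2b, against a median of 52.7%.

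At 6 weeks, 4 receptor genes beside Htr2c were lower in IκBα-dn than in WT cord by the threshold given next. The size of the decrease differed widely between the members. As a description and not a test, 5 of the 14 probes were past an adjusted p under 0.05. All 5 were lower, namely Htr2c probe 2, Htr1a, Htr7, Htr1f and Htr3a, and 0 were higher. The same threshold was passed by 19.7% of all probes, 11.9% lower and 7.74% higher, and since the members were chosen on this comparison nothing is read from their share. The median difference of the members was −0.08, against 0.02 over all probes.

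Htr2c, a Gq-coupled receptor known for editing of its mRNA, was measured by 3 probes that did not move together. Probes 1 and 2 were designed on the same RefSeq transcript and probe 3 on another cDNA record of the gene. On the 3 arrays that set IκBα-dn against WT mice at 6 weeks, probe 2 had log2 ratios of −1.48, −2.02 and −2.18 with the dye effect taken out, for IκBα-dn mice 1, 2 and 3. Each of these IκBα-dn mice was thus below the WT mouse it was hybridised with, and the fitted difference of −1.88 (SE 0.16), a 3.67-fold lower ratio, ranked 5 from the lowest of 43379 probes. The probe had a dye effect of −0.68, and as deposited the same ratios were −2.16, −1.34 and −1.50. Probe 1 was also lower on all 3 arrays, at −0.89, −0.62 and −0.85, with a fitted difference of −0.81 (SE 0.31). Probe 3 had ratios of −0.73, 1.07 and 0.78, which straddle 0, and a fitted difference of 0.28 (SE 0.43).

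**Figure D1:**
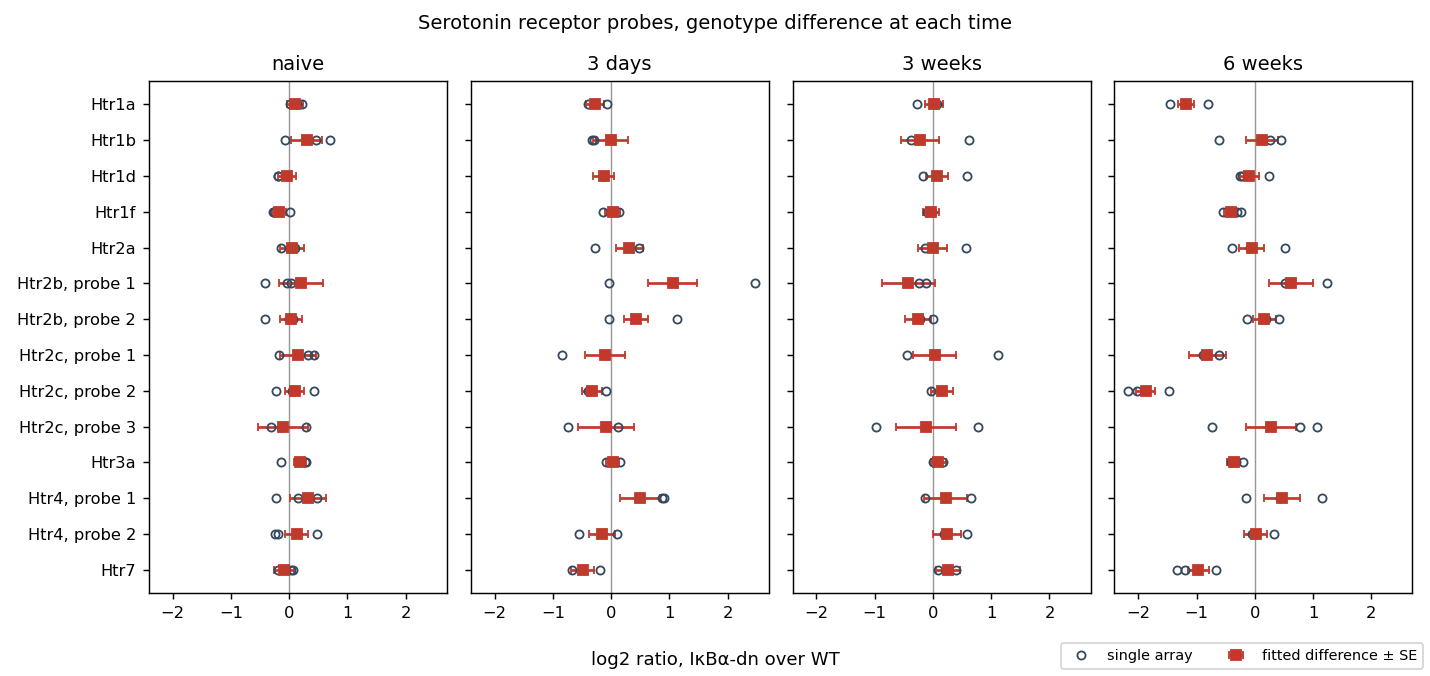
Log2 ratio of IκBα-dn over WT cord (x axis) for each of the 14 serotonin receptor probes (rows), with 1 panel each for naive cord, 3 days, 3 weeks and 6 weeks. Open circles are single arrays with the dye effect taken out and red squares the fitted difference with its SE; Htr2c probe 2, Htr1a and Htr7 lie left of 0 on every array at 6 weeks, at fitted values of −1.88, −1.17 and −0.97.

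Htr1a, the inhibitory receptor that also serves as the autoreceptor of serotonergic neurons, came next. Its ratios at 6 weeks were −0.81, −1.17 and −1.46 in IκBα-dn mice 1, 2 and 3 over their WT partners, and the fitted difference was −1.17 (SE 0.14), a 2.26-fold lower ratio. Htr7, which raises cyclic AMP and has been linked to locomotor circuits in rodents, had ratios of −1.34, −1.20 and −0.67 and a fitted difference of −0.97 (SE 0.18). Every IκBα-dn mouse was below its WT partner for both genes, and the order of the ratios differed between them. The ratio of mouse 1 was the highest of the 3 for Htr1a and the lowest for Htr7. Each mouse had a different WT partner, so that these ratios do not rank the IκBα-dn mice.

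The differences of Htr1f and Htr3a were smaller and closely spaced. Htr1f, an inhibitory receptor best known as a target of migraine drugs, had ratios of −0.31, −0.24 and −0.56 and a fitted difference of −0.41 (SE 0.12). Htr3a, the channel subunit, had −0.32, −0.21 and −0.41 and a fitted difference of −0.37 (SE 0.11). The SEs of these 2 probes, with that of Htr1a, were the smallest of the 14, so that small differences could be measured in them.

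The other receptors had ratios on both sides of 0 at 6 weeks or wide spreads. Htr1b, the inhibitory receptor of nerve terminals, had ratios of −0.61, 0.26 and 0.45, and Htr1d, its close relative, −0.26, −0.22 and 0.25. Htr2a, the Gq-coupled relative of Htr2c that is also found on motor neurons, had −0.38, −0.09 and 0.51. Their fitted differences of 0.12 (SE 0.27), −0.10 (SE 0.16) and −0.05 (SE 0.21) were all smaller than their SEs. Probe 1 of Htr4, which raises cyclic AMP, had a difference of 0.46 (SE 0.31) and its probe 2 a difference of 0.02 (SE 0.20).

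Htr2b was the only member with a probe higher on all 3 arrays at 6 weeks. Its probe 1 had ratios of 0.52, 1.23 and 0.58 in IκBα-dn over WT cord and a fitted difference of 0.62 (SE 0.38). Probe 2, on the same transcript, had 0.20, 0.42 and −0.13 and a difference of 0.17 (SE 0.19).

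The 3 arrays that held both genotypes at 6 weeks lay on 1 slide, and another slide carried the 3 arrays that set IκBα-dn mice at 6 weeks against earlier IκBα-dn mice. There, Htr2c probe 2 had log2 ratios of −2.20 against a naive mouse, −1.41 against a 3-day mouse and −1.50 against a 3-week mouse. Probe 1 had −0.68, −1.39 and −1.44 on those arrays, and probe 3 had 0.22, −0.73 and 1.19. The decrease of probes 1 and 2 was thus present on both slides, and probe 3 changed sign between arrays of both. Both slides carried the same 3 IκBα-dn mice at 6 weeks. The other slide is thus a repeated measurement of the mice on which the members were chosen, and not an independent result. The slide with the 6-week genotype arrays also held an array of IκBα-dn mouse 1 over WT mouse 1 at 3 weeks, on which Htr2c probe 2 was at 0.15.

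Htr1a was also lower on each of the 3 arrays of the other slide, at −1.51, −1.28 and −0.77 against naive, 3 days and 3 weeks. Htr7 had −1.07, −0.10 and −1.18, so that the IκBα-dn mouse at 6 weeks differed little from the 3-day mouse it was set against. Htr1f had −0.45, −0.49 and −1.02, and Htr3a had −0.44, −0.46 and −0.37. In WT mice at 6 weeks, by contrast, Htr2c probe 2 was at 0.19 against naive and at 0.00433 against 3 days.

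When the 3 arrays with both genotypes at 6 weeks were left out, mice at 6 weeks were set only against mice of their own genotype. The genotype difference at 6 weeks then also rested on the arrays of both genotypes at naive, 3 days and 3 weeks, which link the genotypes. It was then −1.74 (SE 0.27) for Htr2c probe 2, −0.98 (SE 0.63) for probe 1 and −1.26 (SE 0.23) for Htr1a. Htr7 came to −0.53 (SE 0.29), Htr1f to −0.64 (SE 0.22) and Htr3a to −0.64 (SE 0.19), which moves each of the 3 by over 1.5 times. Htr2c probe 3 was −0.31 in this fit, Htr2b probe 1 was −0.19 (SE 0.73) and Htr4 probe 2 was −0.32, so that these changed sign.

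**Figure D2:**
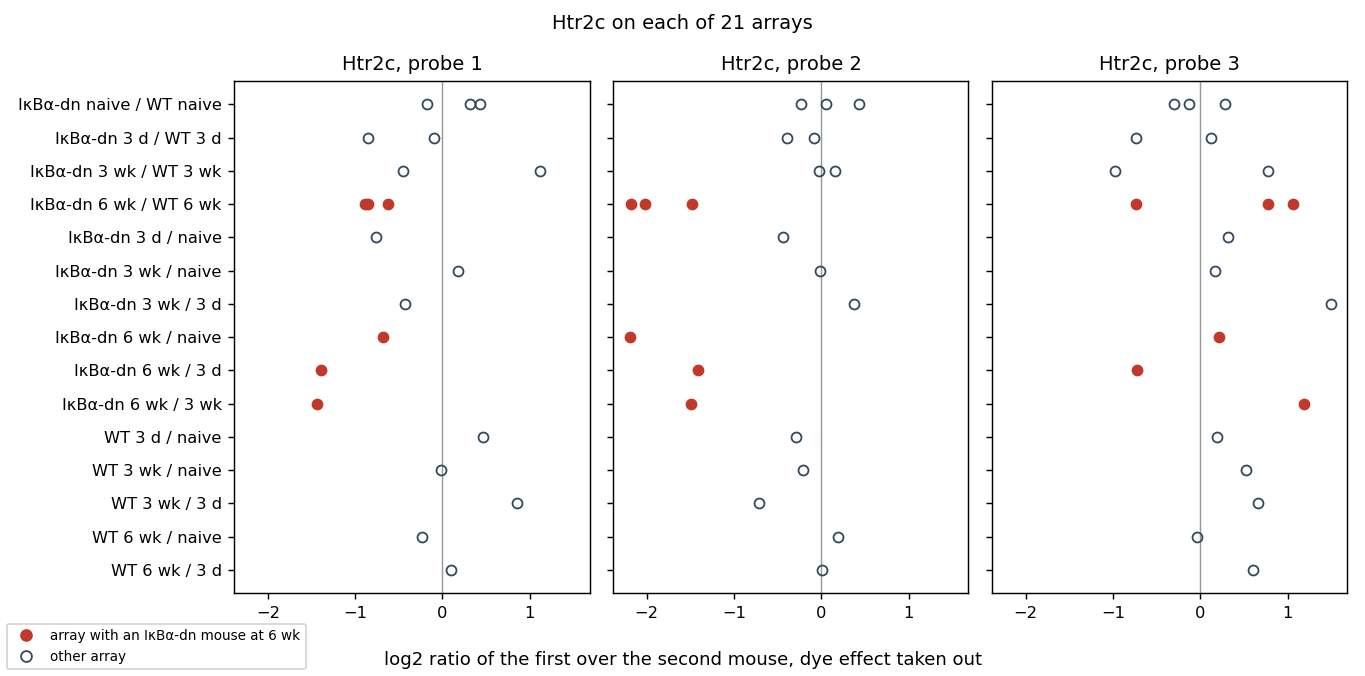
Log2 ratio (x axis, dye effect taken out) of the 3 Htr2c probes on each of 21 arrays, with the pair of mice on the array in rows and the mouse named before the slash on top of the ratio. Filled points are arrays with an IκBα-dn mouse at 6 weeks and open points all others; for probe 2 the 6 filled points run from −2.20 to −1.41, below all open points, while those of probe 3 lie on both sides of 0.

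Relative to naive cord, the IκBα-dn mice at 6 weeks had lower Htr2c probe 2 at −1.95 (SE 0.19), Htr1a at −1.46 (SE 0.16), Htr7 at −1.08 (SE 0.20), Htr2c probe 1 at −1.03 (SE 0.36), Htr1f at −0.59 (SE 0.13) and Htr3a at −0.42 (SE 0.12). Htr2b probe 1 was higher, at 1.77 (SE 0.44). These 7 of 14 probes were past the threshold, which 25.7% of all probes passed, 11.5% higher and 14.2% lower. In WT mice 0 of 14 were past it, against 0.722% of all probes, with Htr2c probe 2 at 0.02 (SE 0.19), Htr1a at −0.19 (SE 0.16) and Htr7 at −0.20 (SE 0.21). Htr2b probe 1 was at 1.35 (SE 0.46) in WT mice at 6 weeks. The change of the genotype difference between naive and 6 weeks was −1.97 (SE 0.22) for Htr2c probe 2, −1.27 (SE 0.19) for Htr1a, −0.88 (SE 0.24) for Htr7 and −0.54 (SE 0.14) for Htr3a, the 4 of 14 past the threshold, all lower, against 8.94% of all probes, 2.89% higher and 6.05% lower. All of these values but those of WT mice share the IκBα-dn mice at 6 weeks with the genotype comparison above. The threshold thus only describes them and is not a test.

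Across the 8 groups, the fitted levels were set in order as a description. IκBα-dn cord at 6 weeks entered the choice of the members, so that its gap to the next group is not a test. Relative to WT naive, Htr2c probe 2 in IκBα-dn cord had a fitted level of 0.09 when naive, −0.39 after 3 days, −0.21 after 3 weeks and −1.86 after 6 weeks. In WT cord it had −0.06 after 3 days, −0.36 after 3 weeks and 0.02 after 6 weeks. IκBα-dn at 6 weeks lay 1.47 (SE 0.19) below the next group, IκBα-dn at 3 days. The next largest gap between neighbours was 0.15 (SE 0.19), between WT and IκBα-dn at 3 weeks. Htr1a had the same form, with IκBα-dn at 6 weeks at −1.36 and the next group, WT at 3 weeks, 0.96 (SE 0.18) above it. For Htr7 the step was 0.60 (SE 0.20), between −1.17 in IκBα-dn at 6 weeks and −0.57 in IκBα-dn at 3 days. Htr1f and Htr2c probe 1 also had their lowest level in IκBα-dn at 6 weeks, at −0.76 and −0.89, with WT at 6 weeks as the next group at −0.35 and −0.07. Htr2b probe 1 had its step higher up, between 0.20 in IκBα-dn naive mice and 1.33 in IκBα-dn at 3 weeks. In Htr1b, Htr1d, Htr2a, Htr2b probe 2, Htr2c probe 3, Htr3a and both Htr4 probes no neighbouring groups differed beyond their intervals.

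**Figure D3:**
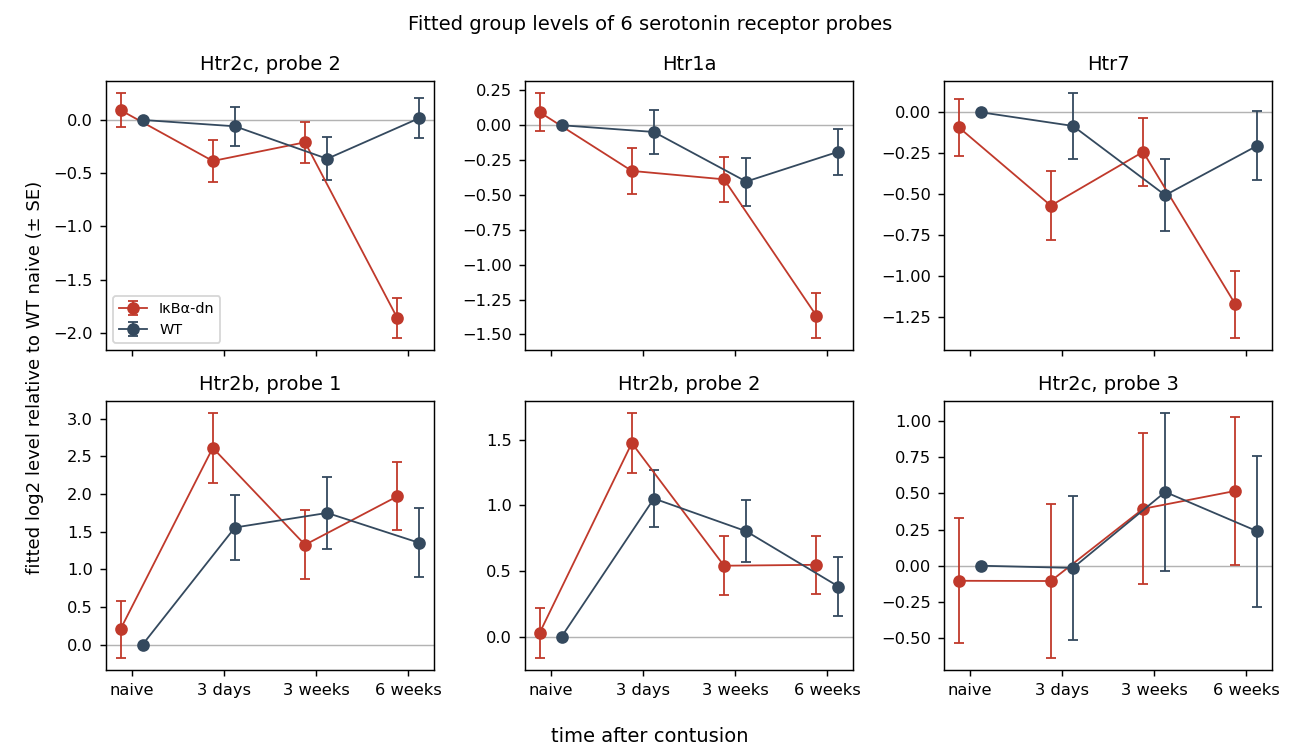
Fitted log2 level relative to WT naive (y axis, with SE) of 6 serotonin receptor probes over naive, 3 days, 3 weeks and 6 weeks after contusion (x axis), red for IκBα-dn and dark blue for WT, each panel with its own scale. Htr2c probe 2, Htr1a and Htr7 have their lowest level in IκBα-dn mice at 6 weeks, at −1.86, −1.36 and −1.17, while Htr2b is lowest in naive cord of both genotypes.

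Before 6 weeks, no serotonin receptor probe was called different between genotypes. With limma, 0 of 14 probes were called in naive cord, 0 after 3 days and 0 after 3 weeks, where 0% of all probes were called each time. At an unadjusted p under 0.05 the counts were 0, 2 and 0 of 14, and 1162, 2949 and 941 of all 43379 probes. The differences of the members ran from −0.18 to 0.32 in naive mice and from −0.42 to 0.26 at 3 weeks. Their median SE was 0.193 for naive cord, 0.216 after 3 days, 0.230 after 3 weeks and 0.196 after 6 weeks. Htr2c probe 2 was at 0.09 (95% interval −0.24 to 0.43) when naive, −0.33 (−0.70 to 0.05) after 3 days and 0.15 (−0.24 to 0.55) after 3 weeks, and Htr1a at 0.09 (−0.19 to 0.38), −0.28 (−0.60 to 0.04) and 0.02 (−0.33 to 0.36).

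At 3 days the 2 probes with an unadjusted p under 0.05 were Htr2b probe 1 and Htr7. Htr2b probe 1 differed by 1.06 (SE 0.42, adjusted p = 0.668 with limma), with ratios of 2.47 for IκBα-dn mouse 1 over WT mouse 2 and −0.04 for IκBα-dn mouse 3 over WT mouse 3. The difference thus rested on 1 of the 2 arrays. Htr7 differed by −0.49 (SE 0.19, adjusted p = 0.667 with limma), with ratios of −0.66 and −0.19 on the same arrays. The change of the genotype difference between naive and 3 days, and between naive and 3 weeks, was called for 0 of 14 members with limma, against 0% of all probes each time, and 0 of 14 had an unadjusted p under 0.05 in either.

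Early after injury the only receptor called was Htr2b, which rose at 3 days over naive cord. In each genotype 1 array set a 3-day mouse directly against a naive one, with the 3-day mouse in Cy5. The other mice entered these comparisons through arrays that link the groups. In IκBα-dn mice 2 of 14 probes were called, both of Htr2b and both higher, against 6.30% of all probes, 5.08% higher and 1.22% lower. Probe 1 rose by 2.41 (SE 0.45, adjusted p = 0.00362), a 5.32-fold increase, and probe 2 by 1.45 (SE 0.22, adjusted p = 0.00106), a 2.73-fold increase, in limma. In WT mice 1 of 14 was called, against 1.89% of all probes, 1.73% higher and 0.161% lower. This was Htr2b probe 2, at 1.05 (SE 0.22, adjusted p = 0.0271), while probe 1 was at 1.56 (SE 0.44, adjusted p = 0.0767) in limma. As given above, the genotype difference of neither probe was called at 3 days.

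Single arrays showed which mice carried the rise. IκBα-dn mouse 1 at 3 days over IκBα-dn naive mouse 1 had 2.80 on probe 1 and 1.42 on probe 2, and WT mouse 1 over WT naive mouse 1 had 2.56 and 1.57. WT mouse 2 at 3 days was low: IκBα-dn mouse 1 stood 2.47 and 1.14 above it, and WT mouse 2 at 3 weeks stood 1.17 and 0.10 above it. Without WT mouse 2 the rise in WT cord was 2.28 (adjusted p = 0.000965) on probe 1 and 1.39 (adjusted p = 0.000159) on probe 2, and both were called by limma. The call of probe 2 in WT cord was lost when other mice were left out in turn, at 0.73 (adjusted p = 0.581) without WT 3-day mouse 1 and 0.91 (adjusted p = 0.145) without mouse 3 in limma. Without naive WT mouse 1, 2 or 3 it was lost as well, at 0.73 (adjusted p = 0.825), 1.01 (adjusted p = 0.0526) and 1.18 (adjusted p = 0.0619). Both calls in IκBα-dn mice were kept with each IκBα-dn mouse of 3 days or naive left out, at adjusted p of up to 0.0465 for probe 1 and 0.00768 for probe 2.

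Genes of microglia and macrophages moved with Htr2b on the arrays with a mouse at 3 days that are given here. Of the 4 measured markers, 3 were called higher in IκBα-dn mice at 3 days over naive, with a list median of 1.05 and Ptprc, the leukocyte antigen CD45, at 2.85. In WT mice 2 of 4 were called higher, with a median of 0.76. The direction of the deposited ratios was inferred from the labels and from these same 4 genes at 3 days over naive. Their direction there is thus not an independent result. On single arrays the median of the 4 genes was 0.85 for IκBα-dn mouse 1 over naive, 1.35 for WT mouse 1 over naive, 0.97 for IκBα-dn mouse 1 over WT mouse 2, and 0.07 for IκBα-dn mouse 3 over WT mouse 3. On the array of IκBα-dn mouse 2 at 3 weeks over IκBα-dn mouse 2 at 3 days, the median was −0.42, Htr2b probe 1 was −1.32 and probe 2 was −1.04. Later over naive, the list median in WT mice was 0.93 at 3 weeks and 0.93 at 6 weeks. Htr2b probe 2 was then at 0.80 and 0.38, and probe 1 at 1.75 and 1.35. In IκBα-dn mice the median was 0.67 and 1.17, with probe 2 at 0.51 and 0.52 and probe 1 at 1.12 and 1.77. Probe 2 thus did not follow the list median at 6 weeks, as a description. The part of these cells in the Htr2b values was not tested. In tissue RNA, fewer or more cells of a type and less or more RNA per cell cannot be told apart. Psmd1, a proteasome gene that overlaps Htr2b, was at −0.03 (SE 0.12, adjusted p = 0.921) in IκBα-dn and −0.18 (SE 0.11, adjusted p = 0.518) in WT mice at 3 days over naive in limma.

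**Figure D4:**
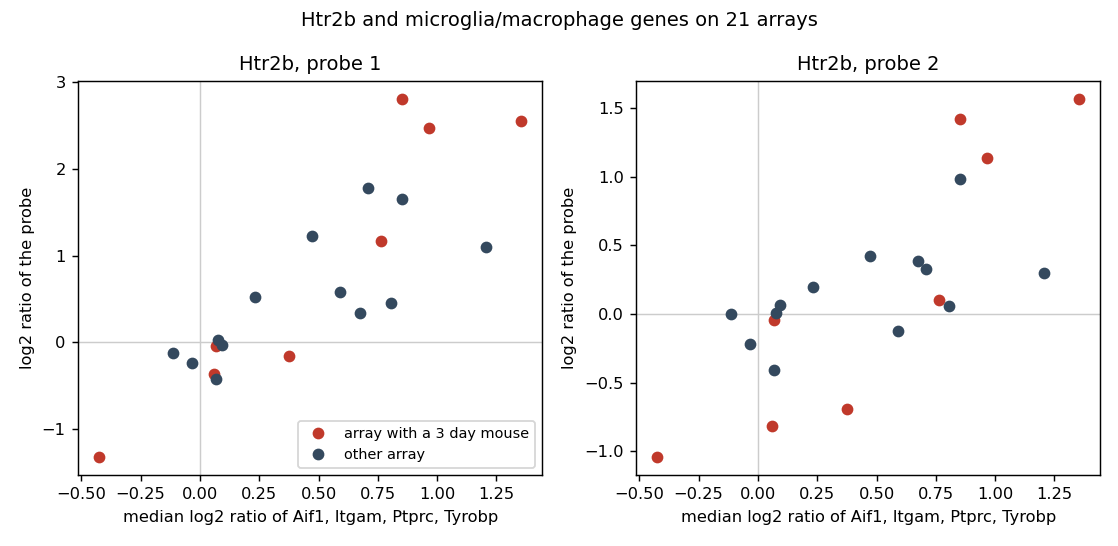
Log2 ratio of Htr2b probe 1 and probe 2 (y axes) against the median log2 ratio of Aif1, Itgam, Ptprc and Tyrobp (x axes) on 21 arrays, red for arrays with a mouse at 3 days and dark blue for the others. The array of IκBα-dn mouse 1 at 3 days over naive lies at 0.85 on the x axis and 2.80 for probe 1, and that of IκBα-dn mouse 2 at 3 weeks over 3 days at −0.42 and −1.32; arrays share mice.

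The other receptors did not pass the test at 3 days. In IκBα-dn mice the nearest were Htr1a at −0.42 (SE 0.16, adjusted p = 0.152), Htr2c probe 2 at −0.48 (SE 0.19, adjusted p = 0.168) and Htr7 at −0.48 (SE 0.21, adjusted p = 0.214) in limma. In WT mice the same probes were at −0.05 (SE 0.16), −0.06 (SE 0.18) and −0.08 (SE 0.20). With the Htr2b probes, 5 of 14 had an unadjusted p under 0.05 in IκBα-dn mice and 2 of 14 in WT mice, against 8175 and 6675 of all 43379 probes.

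At 3 weeks over naive, 0 of 14 probes were called in either genotype with limma, against 0.620% of all probes in IκBα-dn mice and 1.03% in WT mice, and 3 of 14 in IκBα-dn and 4 of 14 in WT mice had an unadjusted p under 0.05, against 4193 and 4156 of all 43379 probes. Htr2b probe 1 was at 1.12 (SE 0.45, adjusted p = 0.397) in IκBα-dn mice and at 1.75 (SE 0.48, adjusted p = 0.112) in WT mice, and probe 2 was at 0.51 (SE 0.22) in IκBα-dn and 0.80 (SE 0.24) in WT mice. Htr1a was at −0.48 (SE 0.16, adjusted p = 0.257) in IκBα-dn mice and at −0.40 (SE 0.17, adjusted p = 0.443) in WT mice in limma. Htr7 was at −0.15 (SE 0.20) in IκBα-dn mice and at −0.51 (SE 0.22) in WT mice.

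Genes that handle serotonin or carry its signal were described from lists chosen with earlier results known. Among 35 measured genes of receptor transduction and partners, 6 were called lower and 1 higher in IκBα-dn mice at 3 days over naive. The shares of all probes were 1.22% and 5.08%. The median was −0.14, against −0.06 over all probes. Of the 55 measured genes of all 6 serotonin lists, limma called 9 in IκBα-dn and 0 in WT mice at 3 days over naive, against 6.30% and 1.89% of all probes. An unadjusted p under 0.05 was held by 19 and 14 of the 55, against 8175 and 6675 of all 43379 probes. The change of the genotype difference between naive and 3 days was called for 0 of the 55, and for 0% of all probes. The 4 transduction genes of smallest p in IκBα-dn mice were the adenylyl cyclases Adcy5 at −0.63 (SE 0.13, adjusted p = 0.00597) and Adcy1 at −0.37 (SE 0.09, adjusted p = 0.0253), the acetylcholine receptor chaperone Ric3, which in cultured cells also acts on the Htr3a channel, at −0.43 (SE 0.10, adjusted p = 0.0137), and Kcnj3, a potassium channel opened by inhibitory G proteins, at −0.75 (SE 0.18, adjusted p = 0.0193) in limma. In IκBα-dn mice at 3 days, Gch1, which makes the cofactor of serotonin synthesis and of other pathways, rose by 1.51 (SE 0.30, adjusted p = 0.00603), as 1 of 7 synthesis genes, and Maoa, which degrades serotonin, rose by 0.55 (SE 0.12, adjusted p = 0.00959), as 1 of 3 breakdown genes. Tph2, the synthesis enzyme of neurons, was at 0.09 (adjusted p = 0.830) in IκBα-dn and 0.45 (adjusted p = 0.138) in WT mice, and Slc6a4, the serotonin transporter, at 0.05 (adjusted p = 0.947) in IκBα-dn and 0.72 (adjusted p = 0.110) in WT mice. Between genotypes, limma called 0 of the 55 genes before 6 weeks, where 0 (naive), 7 (3 days) and 1 (3 weeks) had an unadjusted p under 0.05.

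At 6 weeks, 24 of the 35 transduction genes were below 0 and 11 above it in IκBα-dn over WT cord. Their median was −0.28, against 0.02 over all probes. As a description, 13 were past an adjusted p under 0.05 and lower and 2 past it and higher, against 11.9% and 7.74% of all probes. Adcy5 was at −0.48 (SE 0.11), Adcy1 at −0.37 (SE 0.08), Ric3 at −0.43 (SE 0.08) and Kcnj3 at −1.01 (SE 0.15). Maoa was at 0.35 (SE 0.10) and Maob at 0.44 (SE 0.09), the 2 of 3 breakdown genes past the threshold, both higher. Tph2 was the 1 of 7 synthesis genes past it, at −0.45 (SE 0.13), while Slc6a4 was at 0.06 (SE 0.20), and 0 of 3 transport genes passed. Of 3 measured genes of serotonergic identity, all above 0, only Gata2 passed, at 0.84 (SE 0.15). Gata2 is also expressed in blood and vessel cells. The 4 serotonin receptors outside the members, Htr3b at −0.46, Htr5a at −0.06, Htr5b at 0.11 and Htr6 at −0.17, had 0 past the threshold. Of 7 measured dopamine and noradrenaline receptors, 5 were below 0. Past the threshold were 3 of them, Drd1 at −0.53, Drd2 at −0.81 and Adra2c at −0.98, named after their values were seen.

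Markers of neurons were lower at 6 weeks as well, though not in step with every lower receptor over single arrays. Of 12 neuronal genes, all 12 were below 0 in IκBα-dn over WT cord and 9 were past the threshold, with a median of −0.89. The threshold was passed by 11.9% of all probes lower and 7.74% higher. On the 3 arrays the median of the 12 genes was −0.65, −1.02 and −0.98, with 12, 12 and 11 of 12 below 0. Slc6a5, the glycine transporter of inhibitory neurons, was at −1.96 (SE 0.20), near Htr2c probe 2, while Syt1 was at −0.30 (SE 0.20) and Elavl4 at −0.07 (SE 0.12). On the other slide, the median of the 12 genes in IκBα-dn mice at 6 weeks was −0.96 against naive, −0.66 against 3 days and −0.86 against 3 weeks. For the other lists, the counts are of genes past the threshold. Of cholinergic motor neurons 2 of 6 genes were lower (median −0.26). Of meningeal fibroblasts 3 of 6 were higher (median 1.37, and 1.62, 1.68 and 0.21 on the 3 arrays). Higher too were 2 of 4 of microglia and macrophages (0.46) and 2 of 6 of endothelium and pericytes (0.44). None of 5 astrocyte genes passed (0.02), nor did any of 5 of choroid plexus (−0.03), 3 of ependyma (0.05) or 3 of the spinal roots (0.27), and 1 of 5 oligodendrocyte genes was lower (0.02). The part of these cells in the receptor values was not tested, and since intensities were not used, ratios do not show whether a marker is present in the tissue.

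Htr2c probe 2 followed a pattern over arrays that many named genes shared. The 10 probes with the most similar log ratios over 21 arrays had Pearson r from 0.980 to 0.990, as a description in which arrays share mice. They were Sphkap, Pgam5, Usp32, St8sia3, Cul2, Gpatch11, Ube2v2, Sfrp1, Slc6a5 and Rab9b. Sphkap, which anchors protein kinase A, had r of 0.990 and a difference of −1.75 (SE 0.15) at 6 weeks, and Slc6a5 had 0.981. On the 15 arrays without an IκBα-dn mouse at 6 weeks, the 10 probes had r of 0.772 to 0.923 with Htr2c probe 2, with a median of 0.873. The 10 probes were picked over all 21 arrays, these 15 included, so that this likeness is partly selected too.

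Among the members, Htr1a was the most like Htr2c probe 2, with r of 0.96, rank 108 of the probes with 1 gene symbol. Htr7 had 0.85 (rank 1659), Htr1f 0.74 (rank 3373), Htr3a 0.72 (rank 3597) and Htr2c probe 1 had 0.65 (rank 4604). The arrays held 33653 probes with 1 gene symbol, and many of them were thus at least as alike as these members. Without the IκBα-dn mice at 6 weeks, Htr1a had r of 0.75 and Htr7 of 0.77 over 15 arrays, whereas Htr1f had 0.00367, Htr3a −0.15 and Htr2c probe 1 −0.02. The likeness of the last 3 thus rested on the arrays with those mice. The Htr2b probes ran the other way, at −0.44 and −0.19 over all arrays and at −0.70 and −0.64 over the 15.

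**Figure D5:**
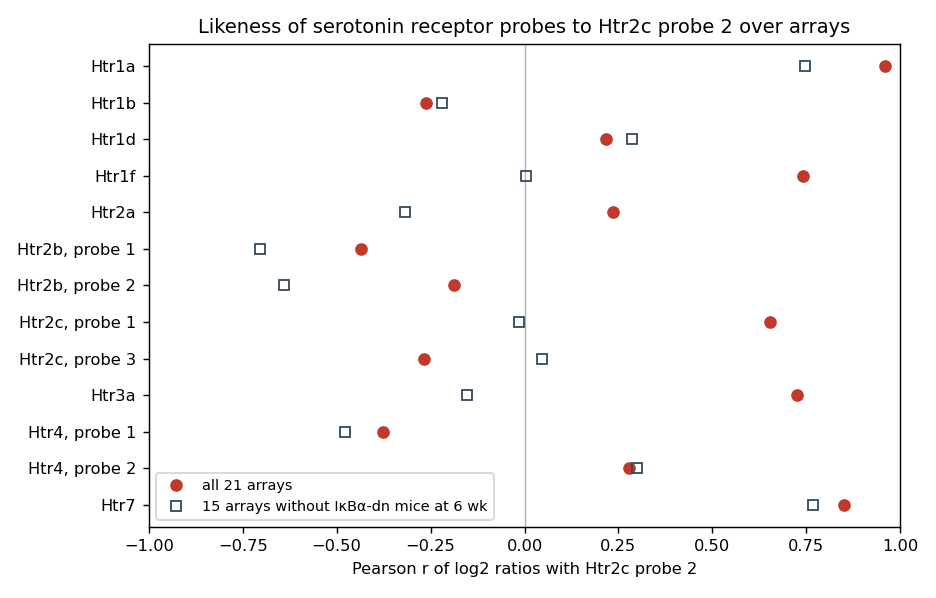
Pearson r of the log2 ratios of each serotonin receptor probe with those of Htr2c probe 2 (x axis), red circles over 21 arrays and open squares over the 15 arrays without an IκBα-dn mouse at 6 weeks. Htr1a and Htr7 stay at 0.75 and 0.77 without those mice, while Htr1f is at 0.00367 and Htr3a at −0.15.

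The spread of the members over all arrays gave another view of how much each receptor varied. Htr2b probe 1 had the largest SD of its log ratios, 1.10, above 99.3% of probes, and ran from −1.32 to 2.80. Htr2c probe 2 followed with 0.857, from −2.20 to 0.43. Htr1d and Htr3a varied least, with SDs of 0.227 and 0.245, below most probes of the arrays. A dye effect was called for 58.6% of all probes, and among the members for Htr1b, Htr1f, Htr2a, Htr2c probes 2 and 3 and Htr3a.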

How the data were processed

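Log2 ratios of 22 arrays with 43379 probes were used as deposited by the authors, who per the methods used a GenePix scanner, a feature filter, and lowess and quantile normalization in limma (version not given in the sources used here). Scale and direction are not stated. On arrays of 3 days over naive, 4 of 4 microglia and macrophage genes were higher when read as Cy5 over Cy3. Depth does not apply, and the number of arrays limits precision. All 14 probes were tested singly in a fit of all probes with limma 3.58.1 in R 4.3.3, with the group of the Cy5 mouse minus that of the Cy3 mouse, 1 dye term, a correlation for shared mice (share of variance 0.45), 16.2 total degrees of freedom, and Benjamini-Hochberg adjustment per comparison. Calls had an adjusted p under 0.05. Mice are separate animals by label. Members and lists were chosen with earlier results of these data known. Named were all members, up to 4 genes per list of smallest p in a tested comparison, and the 10 probes most like Htr2c probe 2. A list gene with several probes was read from its lowest-numbered one. The model was tested on simulated data. Alternatives were other dye terms, blocks, scalings, filters, thresholds and mice left out. Listed genes without a probe were not analysed here. Figures used matplotlib 3.10.9 in Python 3.11.15.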

Additional observations from a re-analysis of the deposited data

Results flagged for a closer look

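In 3 receptor probes, every array that set IκBα-dn against WT mice moved one way at a time point and the opposite way at another. These gaps rest on 2 or 3 arrays at each time. For Htr1a, the mean log2 ratio of IκBα-dn over WT was −0.24 at 3 days (arrays −0.39 and −0.08) and 0.12 in naive mice (0.01 to 0.23), a gap of −0.358. In the fit over all arrays this change was −0.37 (SE 0.19, adjusted p = 0.999872 with limma) and was not called. The other 4 differences were not tested. For Htr1a at 6 weeks the mean was −1.15 against the same 0.12 in naive mice, a gap of −1.27. For Htr2b probe 1, the mean was 0.78 at 6 weeks (0.52 to 1.23) and −0.18 at 3 weeks (−0.23 and −0.12), a gap of 0.956. For Htr7, the mean was 0.24 at 3 weeks (0.09 and 0.39) and −0.43 at 3 days (−0.66 and −0.19), a gap of 0.666. For Htr7 at 6 weeks the mean was −1.07 (−1.34 to −0.67) against 0.24 at 3 weeks, a gap of −1.31.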

How the results depend on the processing

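Htr2b at 3 days in WT mice depended on the processing, with 1 of 14 probes called as reported. The count was 0 with no dye term, with the replicate block, with arrays scaled to one spread, at an adjusted p under 0.01 and with probes averaged per gene, and 2 with a dye term for each slide. With each mouse left out in turn it ran from 0 to 2. Under the replicate block Htr2b probe 2 was at 0.97 (SE 0.22, adjusted p = 0.0681 with limma). In IκBα-dn mice the count was 2, and 1 with probes averaged per gene, which leaves Htr2b a single value. At 3 weeks in WT mice the count was 0, and 2 with arrays taken as independent, where Htr2b probes 1 and 2 were at 1.91 (adjusted p = 0.0430) and 0.91 (adjusted p = 0.0476) in limma. The 6-week difference of Htr2c probe 2, −1.88, was −0.80 (SE 0.21) as the mean of the 3 probes of the gene and ran from −2.05 to −1.71 with each mouse left out. Of the counts of called members and this value under the alternatives, 167 stayed within 1.5 times or 1 SE of the reported value and 17 moved. Most of these counts were 0 as reported, and a 0 that stayed 0 is among the 167, so that the tally says little. None changed direction, which only the value could do. The replicate numbers were not used to pair the mice in the reported fit. Pairs of arrays with the same number had a mean correlation of 0.00868 over 68 pairs, and other pairs 0.0568 over 142. Each array holds 2 mice, so that these means cannot show whether the numbers pair mice. The block gave 1206 calls over all probes at 3 days over naive in IκBα-dn mice, against 2731 without it, and 8 against 822 in WT mice. Likeness on the arrays without IκBα-dn mice at 6 weeks was chosen after seeing the data. Intensities were not used, so that no filter on dim probes was possible, and a filter on the probes of lowest spread took its place.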

Other observations

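The array left out of every comparison set a WT mouse at 6 weeks (Cy5) against a WT mouse whose labels give both 3 days and 3 weeks (Cy3). With the dye effect taken out, its log2 ratio was 0.12 for Htr2c probe 2, 0.79 for probe 1 and 0.80 for probe 3. Htr1a was at 0.20, Htr7 at 0.04, Htr2b probe 1 at 0.15 and probe 2 at −0.10. The highest value after Htr2c probes 1 and 3 was that of Htr1b, 0.74, and the lowest that of Htr4 probe 2, −0.50.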
